A study of Mus musculus with 64 samples.

Results

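The growth hormone (GH), STAT5 and IGF1 axis was followed through 10 genes, Ghr, Stat5a, Stat5b, Socs2, Cish, Igf1, Igfals, Bcl6, Onecut1 and Cux2, chosen by name, and all 10 were found among the 55573 genes of the count table for continuous treatment. Earlier results of these data were known when they were chosen. The livers and hippocampi came from adult male F1 hybrid mice aged 10 to 18 weeks, bred from a C57BL/6J father and a 129sv Ube3a m+/p- mother, and were either wild type (WT) or Ube3a m-/p+ (AS). AS mice carry a deletion of exon 5 of the maternal Ube3a allele in every cell and model Angelman syndrome, whereas neurons, unlike hepatocytes, normally silence the paternal allele. Each mouse carried a slow-release pellet under the skin with 20 mg corticosterone (CORT) and 80 mg cholesterol, or a vehicle pellet with 100 mg cholesterol, and tissue was collected on day 6. There were 5 mice in each of the 4 groups, and their livers are named L1 to L20 and their hippocampi H1 to H20. A separate cohort of 24 mice, 6 per group, gave the left hippocampus 3 h after 1 subcutaneous injection of 3 mg/kg CORT or vehicle. The question was how CORT exposure changes transcript levels in AS and WT mice, here for the machinery through which the liver receives and answers GH.

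Pulses of GH from the pituitary bind the GH receptor on hepatocytes, JAK2 then phosphorylates STAT5A and STAT5B, and STAT5 dimers enter the nucleus and act on target genes. Among these targets are Igf1 and Igfals, which supply the circulating IGF1 complex, and Socs2 and Cish, whose products switch the receptor off again. In rodent liver the pulsatile male and the more continuous female pattern of GH give rise to many sex differences, with BCL6 a repressor linked to the male pattern, and ONECUT1 and CUX2 (the latter far higher in females) among the other factors. Glucocorticoids such as CORT act through a nuclear receptor that can bind STAT5 in hepatocytes.

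A set of 6 livers stood apart from the others in genes outside the axis. Dbp, an output gene of the circadian clock, was at 60.03 to 237 CPM (read counts scaled to the library's total on genes, with TMM factors) in L1, L2, L3, L4, L7 and L8 and at 0.653 to 4.21 CPM in the other 14. Arntl, a core activator of the clock, was at 0.289 to 5.03 CPM in these 6 livers and at 26.4 to 40.6 CPM in the other 14. Of 12 clock genes, a list written after the data were seen, Dbp itself chose the 6 livers, and of the other 11 genes 9 did not overlap between the 6 and the 14 livers, 6 higher and 3 lower in the 6, beside 3.37% of 12273 genes. In the hippocampi of the same numbers 3 of these 11 did not overlap, all higher, beside 0.167% of 14949 genes. Dbp was at 53.8 to 85.6 against 36.1 to 50.8 CPM there. The 6 mice were 2 WT vehicle, 1 AS vehicle, 1 WT CORT and 2 AS CORT mice. The sources used here give no time of collection for this cohort, and results on the livers are given below with and without these mice where they differ.

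The start regions of Bcl6 and Onecut1 are shown, both among the transcripts that varied widely between mice of the same group. Cish varied more than Bcl6, with deviations from group means spread over 6.62 against 4.28 log2 units. Its window, which held no match to the STAT5 motif described below, is not shown. RefSeq entries (GRCm38.p6) matched 9 of the 10 members, and Socs2 was the one without an entry. The 250 bases before each start of Bcl6, and before that of Onecut1, read as follows from 5′ to 3′ on the strand of the gene, with each match to TTCNNNGAA, the palindrome that STAT5 dimers recognise, in capitals. The first lies within the Bcl6 gene outside annotated exons, the second upstream of Bcl6, and the third within the overlapping gene Gm20649.
Bcl6 inner start, minus strand, chr16:23981284-23981533: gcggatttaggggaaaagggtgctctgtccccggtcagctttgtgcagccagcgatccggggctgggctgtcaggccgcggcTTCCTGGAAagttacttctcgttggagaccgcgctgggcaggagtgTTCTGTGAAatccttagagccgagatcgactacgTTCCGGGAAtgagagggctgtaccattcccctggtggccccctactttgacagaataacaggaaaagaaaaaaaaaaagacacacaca
Bcl6 outer start, minus strand, chr16:23988853-23989102: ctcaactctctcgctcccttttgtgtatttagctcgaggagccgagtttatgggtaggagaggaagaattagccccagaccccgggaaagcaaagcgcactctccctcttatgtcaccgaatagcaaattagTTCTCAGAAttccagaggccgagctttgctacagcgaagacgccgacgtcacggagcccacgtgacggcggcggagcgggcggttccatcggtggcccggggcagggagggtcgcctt
Onecut1, plus strand, chr9:74861671-74861920: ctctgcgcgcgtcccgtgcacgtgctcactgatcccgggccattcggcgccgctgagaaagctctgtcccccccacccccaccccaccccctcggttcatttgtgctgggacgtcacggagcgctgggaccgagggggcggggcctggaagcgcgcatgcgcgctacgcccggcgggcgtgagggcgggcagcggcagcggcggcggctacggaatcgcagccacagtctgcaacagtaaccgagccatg

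The inner Bcl6 window held 3 matches, TTCCTGGAA, TTCTGTGAA and TTCCGGGAA, which began 168, 122 and 88 bases before the start. Of 32851 promoters of the same length in RefSeq, 7.02% held 1 match or more and 9, or 0.0274%, held 3. The outer Bcl6 window held 1, TTCTCAGAA, 118 bases before the start. Igfals also had 2 windows with 1 match each, TTCTCAGAA at 236 and TTCCTAGAA at 58 bases before a start. The windows of the other members with an entry held no match. That of Cish lay within an annotated exon of Cish, and that of Igf1 within annotated exons of Igf1. The bases before the annotated start of these genes were therefore not searched. The letters ACANNNTGT, the core of the palindrome that the glucocorticoid receptor binds, were found in 5.835% of all promoters and among the members only in 1 window of Stat5b. Both motifs read the same on either strand in their fixed letters, and a match is a string of letters and not a measured binding site.

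The order of the members in the liver of WT mice with vehicle was read from CPM per kilobase of exon. Ghr was highest with 65.1 ± 7.57 (SD, n = 5) CPM per kilobase, followed by Igf1 with 54.9 ± 6.45 and Igfals with 44.5 ± 11.7. Stat5b stood at 11.4 ± 2.81, Bcl6 at 6.52 ± 4.37, Onecut1 at 3.67 ± 4.27, Cish at 3.31 ± 4.43, Stat5a at 1.84 ± 0.676, Socs2 at 0.894 ± 0.729 and Cux2 at 0.0259 ± 0.0122 CPM per kilobase. The mean ± SD ranges of neighbours in this order overlapped except between Igfals and Stat5b and between Socs2 and Cux2. The livers expressed hepatocyte markers throughout, with Alb at 68784 CPM or more, and Gh and Prl were at 0 counts in all 20. In the hippocampus, Igfals did not exceed 3 counts in any library, which leaves it at or under the floor of detection.

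In WT mice with vehicle 7 members were higher in the liver than in the hippocampus and 1 was lower, beside 41.8% of 15937 genes higher and 47.8% lower (89.6% in all) by edgeR's quasi-likelihood test (adjusted p under 0.05, called "altered" from here on). Ghr was 7.37 ± 0.16 (SE) log2 units higher in the liver (adjusted p = 2.24e-31) and Igf1 7.02 ± 0.13 units higher (adjusted p = 1.01e-32). Stat5a and Stat5b were higher by 4.16 ± 0.26 and 3.13 ± 0.17 log2 units, and Cish and Onecut1 by 3.82 ± 0.78 and 5.19 ± 0.88. Igfals was the seventh, and no fold is given against a tissue at the floor. Cux2 was 5.59 ± 0.39 log2 units lower in the liver (edgeR adjusted p = 1.0e-15). Socs2 and Bcl6 were expressed in both tissues, and their differences of -0.20 ± 0.49 and 0.35 ± 0.69 log2 units did not pass the test.

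**Figure D1:**
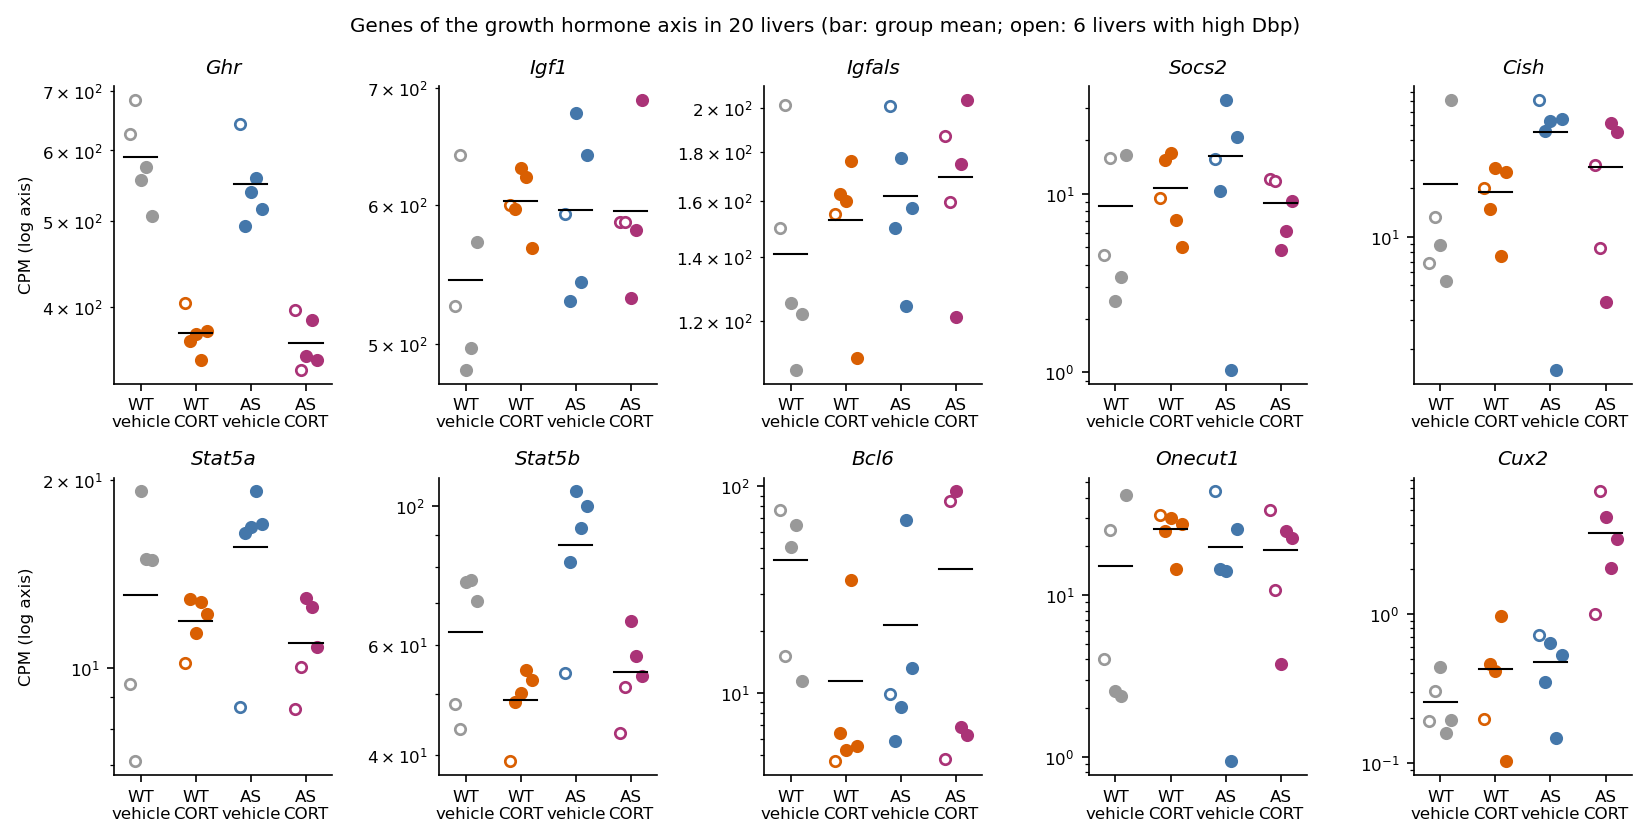
CPM of the 10 members in each of the 20 livers, on a log axis, by group (WT vehicle, WT CORT, AS vehicle, AS CORT). Open symbols are the 6 livers with high Dbp and bars are group means; Ghr separates CORT from vehicle in both genotypes, whereas Bcl6, Cish and Onecut1 spread widely within groups.

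The GH receptor transcript was lower in every CORT liver than in any vehicle liver of its genotype, while neither Igf1 nor Igfals passed the test. Ghr (chr15:3317760-3583492, minus strand) encodes the receptor. In WT livers with vehicle it was at 626, 685, 555, 574 and 506 CPM (L1, L4, L6, L13, L17) and with CORT at 404, 366, 373, 348 and 376 CPM (L3, L5, L12, L15, L20). In AS livers with vehicle it was at 642, 493, 539, 559 and 516 CPM (L2, L9, L11, L14, L19) and with CORT at 397, 339.7, 352, 387 and 349 CPM (L7, L8, L10, L16, L18). The CORT and vehicle ranges did not overlap in either genotype. Mean levels went from 589 ± 68.6 to 373 ± 20.3 (SD, n = 5 each) CPM in WT mice, a fall by 0.66 ± 0.08 (SE) on the log2 scale (edgeR adjusted p = 1.15e-05). In AS mice they went from 549.7 ± 57.2 to 365 ± 25.2 CPM, a fall by 0.59 ± 0.08 (adjusted p = 2.22e-05). The difference between the 2 falls did not pass the test of the interaction (0.07 ± 0.12, adjusted p = 0.885). Ghr fell by 0.58 ± 0.07 log2 units in WT livers, and in AS livers by 0.54 ± 0.07, when the 6 mice with high Dbp were left out.

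Ghr was the 1 member of 10 altered by CORT in the WT liver, where 18.6% of 12273 tested genes were altered (8.73% higher and 9.9% lower). In the AS liver 3 of 10 were altered, Ghr and Stat5b lower and Cux2 higher, where 27.5% of genes were altered (12.6% higher and 15% lower). Cux2 passed the filter on low counts only through the AS livers with CORT. Of the other 9 members 1 was altered in WT and 2 in AS mice, near the shares over all genes, with medians of -0.14 and -0.51 log2 units beside 0.00 over all genes in both. Summed markers of Kupffer cells, the resident macrophages, were also lower with CORT, at 56.0 to 84.9 CPM in CORT livers against 113 to 210 in vehicle livers, and those of T and B cells at 1.09 to 2.76 against 4.72 to 8.81 CPM. Red cell markers summed to 229 to 328 CPM in WT livers with CORT against 343 to 574 with vehicle, and to 124 to 192 against 243 to 475 CPM in AS livers. Hepatocyte markers were higher on average with CORT, with medians of 106705 against 91481 CPM in WT and 128580 against 101611 CPM in AS livers, and overlapped between the treatments. A lower level in whole liver cannot be told apart from fewer cells of a type, and the part of cell makeup in these results was not tested.

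**Figure D2:**
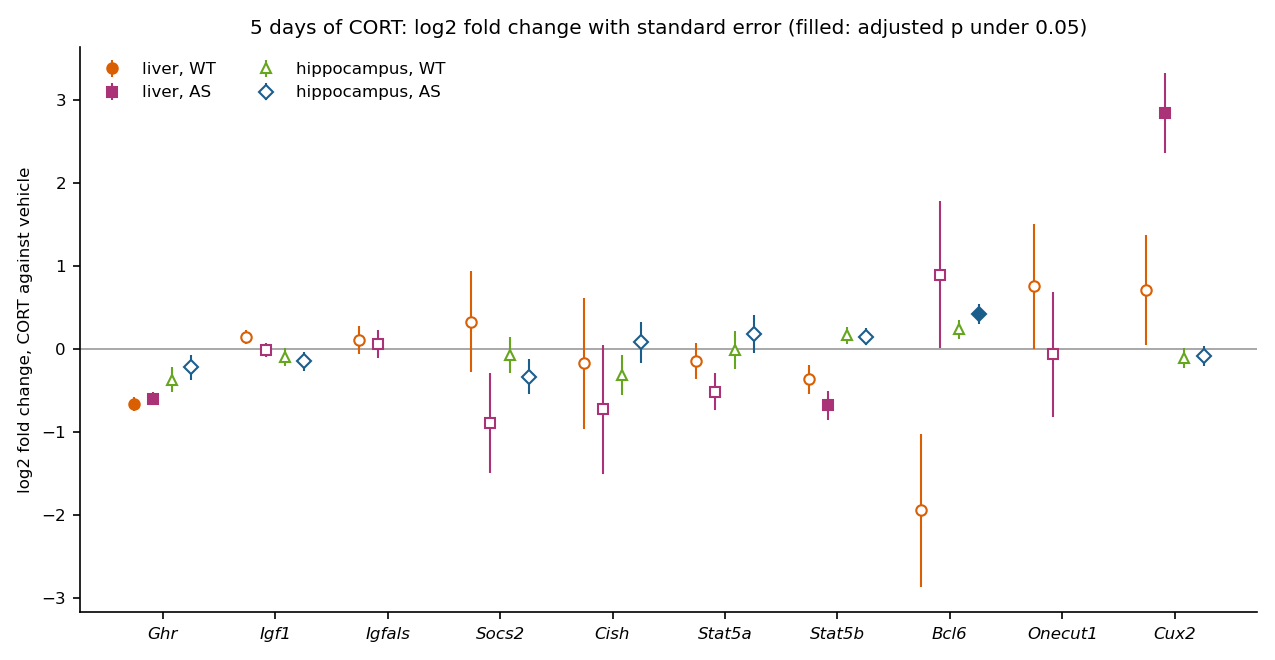
Change with CORT on the log2 scale (CORT minus vehicle, error bars are SE) for each member in liver and hippocampus of WT and AS mice. Filled symbols have an adjusted p below 0.05; Ghr lies below 0 in both livers, Stat5b and Cux2 are filled in the AS liver alone, and Bcl6 and Cish carry the widest errors in the liver.

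Both STAT5 transcripts were lower with CORT on average, with Stat5b passing the test in AS mice. Stat5b (chr11:100780731-100850724, minus strand) encodes the main STAT5 protein of hepatocytes. It was at 48.3, 43.997, 75.5, 76.2 and 70.5 CPM in WT livers with vehicle and at 39.1, 48.7, 50.2, 54.8 and 52.7 CPM with CORT, in the order of libraries given for Ghr. In AS livers it was at 54.1, 81.5, 106, 92.4 and 100.1 CPM with vehicle and at 43.4, 51.5, 65.6, 57.7 and 53.4 CPM with CORT. The low vehicle values, 48.3 and 44.0 in WT and 54.1 in AS mice, all came from livers with high Dbp. Stat5b fell by 0.68 ± 0.17 (SE) log2 units in AS mice (edgeR adjusted p = 0.00679), and its change of -0.36 ± 0.17 in WT mice did not pass the test (adjusted p = 0.171). The difference between the genotypes, -0.32 ± 0.25, did not pass the interaction test (adjusted p = 0.731).

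Stat5a (chr11:100859351-100885169, plus strand), the neighbouring paralog, overlaps Stat3 on the other strand, and reads that fit both STAT5 genes could not be assigned with certainty. WT livers held 9.43, 7.09, 19.2, 14.9 and 14.9 CPM with vehicle and 10.2, 12.9, 11.4, 12.7 and 12.2 CPM with CORT. AS livers held 8.66, 16.5, 16.8, 19.2 and 17.02 CPM with vehicle and 8.59, 10.03, 12.9, 12.5 and 10.8 CPM with CORT. The 3 vehicle livers below 10 CPM were again L1, L4 and L2, and over all groups the 6 livers with high Dbp (7.09 to 10.2 CPM) did not overlap with the other 14 (10.8 to 19.2 CPM). Changes with CORT were -0.14 ± 0.22 log2 units in WT (edgeR adjusted p = 0.729) and -0.51 ± 0.22 in AS livers (adjusted p = 0.0932).

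Without the 6 mice with high Dbp, an alternative chosen after seeing the data, both STAT5 transcripts were altered in both genotypes. Stat5a then fell by 0.41 ± 0.10 log2 units in WT livers (edgeR adjusted p = 0.0117). In AS livers it fell by 0.52 ± 0.10 (adjusted p = 0.00195). For Stat5b the changes were -0.52 ± 0.09 in WT livers (adjusted p = 0.000824) and -0.69 ± 0.09 in AS livers (adjusted p = 6.7e-05). The number of altered members thus went from 1 to 3 of 10 in WT mice and from 3 to 4 of 10 in AS mice, where 19.5% and 25.8% of all genes were altered. With the class of mice as a covariate over all 20 livers, Stat5b fell by 0.44 ± 0.09 in WT mice (adjusted p = 0.00141) and Stat5a by 0.35 ± 0.13 in AS mice (adjusted p = 0.0439), while Stat5a in WT mice, at -0.21 ± 0.13, did not pass (adjusted p = 0.242).

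**Figure D3:**
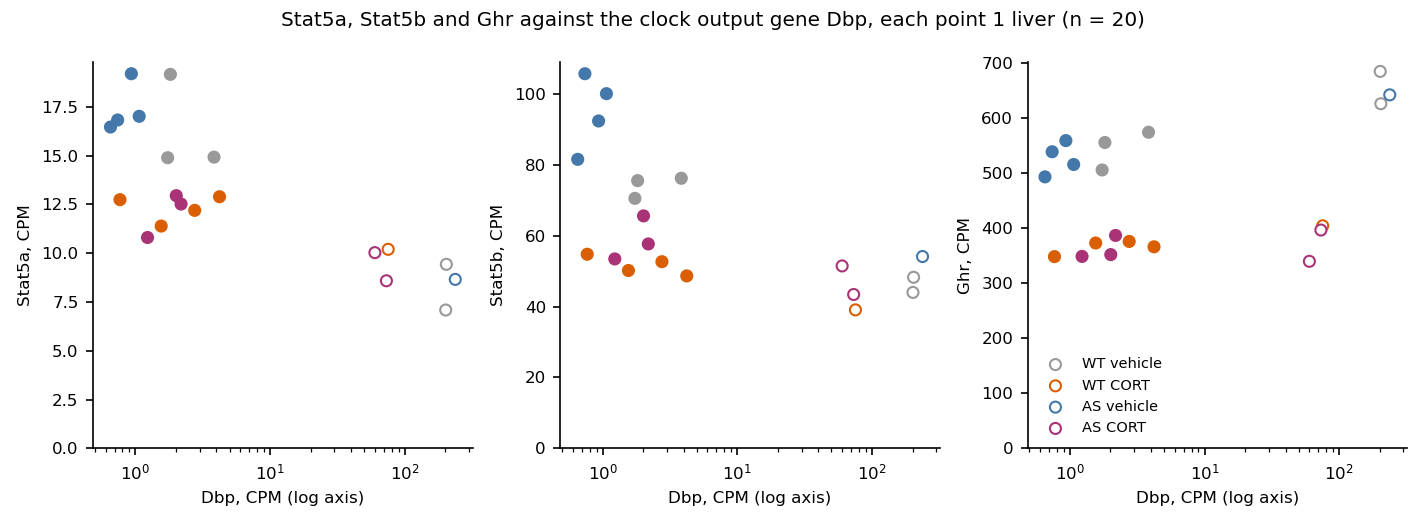
CPM of Stat5a, Stat5b and Ghr (linear axes from 0) against CPM of Dbp (log axis) in the 20 livers, with colours for the 4 groups and open symbols for the livers with high Dbp. The 6 livers with Dbp of 60.03 CPM or more have the lowest Stat5a (7.09 to 10.2 CPM), and among the other 14 the CORT livers lie below the vehicle livers of their genotype on average.

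Among the targets and products of the pathway, Igf1, Igfals, Socs2 and Cish, none passed the test with CORT in the liver of either genotype. Igf1 (chr10:87858265-87937042, plus strand, overlapping Igf1os) encodes the main endocrine mediator of GH. It was at 525, 641, 483, 497 and 572 CPM in WT livers with vehicle and at 600.1, 597, 630.2, 623 and 567 CPM with CORT. In AS livers it was at 593, 529, 677, 542 and 641 CPM with vehicle and at 587, 587, 531, 581 and 689 CPM with CORT. The groups overlapped, with changes of 0.15 ± 0.09 (SE) log2 units in WT (edgeR adjusted p = 0.249) and 0.00 ± 0.09 in AS livers (adjusted p = 0.985). Mean Igf1 was 603 ± 24.7 (SD, n = 5) CPM in WT livers with CORT and 543.5 ± 63.9 CPM with vehicle.

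Igfals (chr17:24865997-24882010, plus strand) encodes the acid-labile subunit that holds IGF1 in its circulating complex. WT livers were at 149.8, 201, 125, 107 and 122 CPM with vehicle and at 155, 163, 160.01, 176 and 109.7 CPM with CORT. AS livers were at 201, 150.1, 177, 124 and 157 CPM with vehicle and at 187, 159.7, 121, 175 and 204 CPM with CORT. The groups overlapped in both genotypes, and changes of 0.12 ± 0.17 and 0.06 ± 0.17 log2 units did not pass the test (edgeR adjusted p = 0.711 and 0.818).

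Socs2 (chr10:95385362-95417180, minus strand) encodes a feedback inhibitor of the receptor. It ranged over 4.52, 15.8, 2.51, 3.42 and 16.4 CPM in WT livers with vehicle and 9.41, 15.4, 16.9, 7.11 and 5.05 CPM with CORT. AS livers had 15.6, 10.4, 33.6, 1.03 and 20.8 CPM with vehicle and 12.1, 11.8, 4.86, 6.18 and 9.09 CPM with CORT. The span within a single group thus reached 1.03 to 33.6 CPM, and the changes of 0.34 ± 0.60 and -0.89 ± 0.60 log2 units did not pass the test (edgeR adjusted p = 0.767 and 0.294).

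Cish (chr9:107296026-107302784, plus strand, overlapping Gm17040 and Gm17041), a second SOCS family inhibitor and an early target of STAT5, spread still more. WT livers were at 6.88, 13.3, 8.89, 5.26 and 71.8 CPM with vehicle and at 20.2, 14.9, 26.7, 7.63 and 25.2 CPM with CORT. AS livers were at 71.6, 45.5, 52.9, 1.47 and 54.01 CPM with vehicle and at 28.1, 8.52, 3.92, 51.3 and 45.1 CPM with CORT. High and low livers occurred in every group but WT CORT, which stayed below 27 CPM, and the changes of -0.17 ± 0.78 and -0.72 ± 0.79 log2 units were within their error (edgeR adjusted p = 0.918 and 0.532).

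Bcl6 (chr16:23965052-23988852, minus strand, overlapping Gm37419), the repressor that binds many of the same sites as STAT5, was used to divide the livers into 2 sets. WT livers were at 76.6, 15.1, 50.96, 64.5 and 11.4 CPM with vehicle and at 4.65, 6.42, 5.28, 35.1 and 5.51 CPM with CORT. AS livers were at 9.86, 5.82, 8.56, 68.8 and 13.2 CPM with vehicle and at 4.77, 85.1, 94.7, 6.86 and 6.26 CPM with CORT. In all, 7 livers from all 4 groups (L1, L6, L8, L10, L13, L14 and L15) lay at 35.1 to 94.7 CPM and the other 13 at 4.65 to 15.1 CPM. The division was made at the widest gap of Bcl6, 1.21 log2 units. Such a cut yields 2 sets from any values, and whether Bcl6 has 2 states was not tested. Changes with CORT of -1.94 ± 0.92 log2 units in WT (edgeR adjusted p = 0.158) and 0.90 ± 0.89 in AS livers (adjusted p = 0.490) did not pass the test. Without L15, the 1 high WT CORT liver, the change in WT mice was -3.0 ± 0.99 (adjusted p = 0.0457).

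Onecut1 (chr9:74861921-74891781, plus strand) encodes HNF6, a liver-enriched activator. It was at 4.04, 25.2, 2.56, 2.36 and 41.4 CPM in WT livers with vehicle and at 31.3, 24.8, 30.03, 14.5 and 27.6 CPM with CORT. AS livers were at 44.1, 14.5, 14.1, 0.933 and 25.6 CPM with vehicle and at 33.8, 10.7, 3.73, 24.8 and 22.6 CPM with CORT. WT livers with vehicle held 3 values below 5 CPM and WT livers with CORT none, yet the change of 0.76 ± 0.75 log2 units did not pass the test (edgeR adjusted p = 0.547), nor did -0.06 ± 0.75 in AS mice (adjusted p = 0.969).

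Cux2 (chr5:121856366-122050102, minus strand, overlapping Gm15637 and Gm3970), a repressor of male-biased genes that is low in male liver, was higher in AS than in WT mice under CORT. AS livers with CORT were at 0.995, 6.72, 4.46, 2.03 and 3.21 CPM. AS livers with vehicle were at 0.722, 0.351, 0.6396, 0.147 and 0.533 CPM, all below the lowest of these. WT livers were at 0.192, 0.302, 0.442, 0.158 and 0.193 CPM with vehicle and at 0.198, 0.462, 0.414, 0.973 and 0.102 CPM with CORT. The values rest on 2 to 138 counts per liver, and several vehicle livers were near the floor of 3 counts, 0.144 to 0.161 CPM. Cux2 passed the filter on low counts only through the AS livers with CORT, the group where it is high, so it could enter the tests in the liver only by being high there.

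In AS mice Cux2 was 2.85 ± 0.49 (SE) log2 units higher with CORT than with vehicle (edgeR adjusted p = 0.000182), against 0.72 ± 0.71 in WT mice (adjusted p = 0.508). With CORT it was 3.01 ± 0.50 log2 units higher in AS than in WT mice (adjusted p = 0.00861), and without a filter on low counts this was 3.01 ± 0.46 (adjusted p = 0.00262). Fitted over these 2 groups alone it was 3.01 ± 0.56 and no longer called (adjusted p = 0.0536). The other 9 members held 0 calls in this comparison by edgeR, where 0.277% of all genes were altered (0.106% higher and 0.171% lower), and nothing is read from the count with Cux2. With vehicle, 0 of 10 members differed between AS and WT mice by edgeR, beside 0.0163% of all genes (0.00815% in each direction). DESeq2 likewise called 0, and 1 member, Stat5b, had an unadjusted p below 0.05 (0.46 ± 0.17 log2 units, adjusted p = 0.359). The interaction of genotype and CORT altered 0 members by edgeR and by DESeq2, and 0% of genes by edgeR. At an unadjusted p below 0.05, 995 of all genes (8.11%) passed it and 2 members, Cux2 (2.13 ± 0.86, adjusted p = 0.547) and Bcl6 (2.84 ± 1.28, adjusted p = 0.584). Without the 6 mice with high Dbp, Cux2 remained 2.72 ± 0.45 log2 units higher in AS than in WT mice with CORT (adjusted p = 0.0339).

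The labels of genotype were checked against Ube3a, which was at 28.5 to 38.6 CPM in AS livers and 41.8 to 54.4 CPM in WT livers. In the hippocampus the ranges overlapped, at 69.7 to 98.2 CPM in AS and 73.5 to 98.4 CPM in WT mice, for reads counted over the whole gene and not over the deleted exon.

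The other components of the axis are read beside the shares of all genes altered by CORT in the liver, 8.73% higher and 9.9% lower in WT mice and 12.6% higher and 15% lower in AS mice. Of 10 ligands and receptors, 4 were tested in the liver, and Prlr, the prolactin receptor, was the 1 that rose in WT mice (0.53 ± 0.17 log2 units, edgeR adjusted p = 0.0353). It changed by 0.32 ± 0.17 in AS mice (adjusted p = 0.179). Insr, Igf2r and Igf1r, the insulin and IGF receptors, changed by between -0.06 and 0.20 log2 units in both genotypes without passing the test.

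Of 25 genes of GH signal transduction, 24 were tested, with 1 higher and 2 lower in WT mice and 2 higher and 4 lower in AS mice, near those shares. The medians of the list were -0.07 and -0.08 log2 units, beside 0.00 over all genes. Ptpn11, the phosphatase SHP2 that acts downstream of the receptor, rose by 0.17 ± 0.05 log2 units in WT (edgeR adjusted p = 0.0273) and 0.37 ± 0.05 in AS mice. Sirpa, a membrane glycoprotein that is also high in macrophages, fell by 0.83 ± 0.13 and 1.39 ± 0.13 log2 units. Socs3, an inhibitor induced by cytokines, fell by 0.94 ± 0.29 in WT mice (adjusted p = 0.0279) and was at -0.08 ± 0.29 in AS mice. In AS mice Pik3r1, a regulatory subunit of PI3 kinase, rose by 0.81 ± 0.22 and the adaptor Sh2b2 fell by 1.05 ± 0.25 log2 units, while Sos1 passed in neither genotype (0.24 ± 0.08 and 0.18 ± 0.09).

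The IGF carriers held the largest fall among the tested ligands, receptors, transducers and carriers in the liver. Of 11 carriers and their proteases, 7 were tested, 1 lower in WT and 3 lower in AS mice, beside 9.9% and 15% of all genes lower, with list medians of -0.07 and -0.43 log2 units. Igfbp2, an IGF binding protein made by hepatocytes, went from 313 to 743 CPM in WT livers with vehicle to 54.3 to 94.2 CPM with CORT, and from 278 to 891 to 69.5 to 77.1 CPM in AS livers. It fell by 2.91 ± 0.29 and 2.65 ± 0.29 log2 units. In AS mice Igfbp3 and Igfbp7, which are made largely by non-parenchymal cells, fell by 0.55 ± 0.17 and 0.43 ± 0.09 log2 units (adjusted p = 0.0225 and 0.00125). Igfbp1, Igfbp4, Igfbp5 and Igfbp6 did not pass in either genotype, with changes from -0.83 ± 0.68 (Igfbp1 in AS mice) to 1.11 ± 0.63 (Igfbp5 in AS mice).

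Of 12 liver-enriched transcription factors that were not members, 11 were tested, with 1 higher and 1 lower in WT mice and 2 higher and 1 lower in AS mice, near the 18.6% and 27.5% of all genes altered, and list medians of 0.00 and -0.01 log2 units. In WT mice Nr5a2, a nuclear receptor, fell by 0.31 ± 0.10 log2 units. In AS mice Cebpb and Hnf4a rose by 1.62 ± 0.33 and 0.45 ± 0.09 log2 units and Foxa1 fell by 0.54 ± 0.19, while Nr1h4, the bile acid receptor, was at 0.44 ± 0.17 (adjusted p = 0.0576).

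Sex-biased liver genes are the classical readout of GH pulses, and in these male livers several female-biased genes were high with CORT. Of 25 female-biased genes 12 were tested, and 8 were higher and 1 lower with CORT in WT mice, and 9 higher and 1 lower in AS mice. Over all genes 8.73% and 12.6% were higher. Among the female-biased genes not tested, A1bg, Cyp2b9, Cyp2b13, Cyp3a16, Cyp3a41a, Cyp3a41b, Cyp3a44 and Hao2 passed the filter on low counts in no group. These genes thus stayed below the filter with CORT as well as with vehicle. The female-biased list and the male-biased list below were chosen with earlier results of these data known. Their counts beside such shares thus describe these data and are no independent test. Among the 12, Sult1e1, Cyp2c69 and Cyp2c40 entered the test only through their CORT livers, since most vehicle livers were at or near the floor, so these counts could not have come out otherwise for them. Without the 4 genes that passed the filter through CORT livers alone, 4 of 8 were higher and 1 lower in WT mice, and 5 higher and 1 lower in AS mice. Sult1e1, the estrogen sulfotransferase, was at 0 to 0.201 CPM in all vehicle livers and at 8.497 to 48.4 CPM in all CORT livers. Cyp17a1, a steroid hydroxylase, was expressed before, and went from 3.63 to 12.1 CPM in vehicle livers to 276 to 433 CPM in CORT livers, a rise by 5.57 ± 0.25 log2 units in WT and 6.09 ± 0.26 in AS mice. Cyp39a1, an oxysterol hydroxylase, rose by 2.41 ± 0.11 and 2.76 ± 0.12 log2 units. The 1 gene of the list that fell in both was Abcd2, a peroxisomal transporter, named here after its values were seen (-1.51 ± 0.36 and -1.73 ± 0.33).

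All 22 male-biased genes were tested, with 1 higher and 7 lower in WT mice and 0 higher and 10 lower in AS mice, beside 9.9% and 15% of all genes lower. The medians were -0.13 and -0.47 log2 units. Mup7, a major urinary protein, went from 1254 to 2234 CPM with vehicle to 235 to 554 CPM with CORT in WT livers and from 718 to 1365 to 25.7 to 155 CPM in AS livers. It fell by 2.23 ± 0.39 and 3.55 ± 0.41 log2 units, although reads of Mup genes may be shared between near-identical copies. Mup1 fell by 2.0 ± 0.21 and 1.99 ± 0.21, and Ugt2b38, a glucuronosyltransferase, by 2.27 ± 0.29 and 2.61 ± 0.35. Nudt7, a peroxisomal coenzyme A hydrolase, fell by 1.19 ± 0.18 and 1.99 ± 0.19, and the fatty acid hydroxylase Cyp2u1 by 1.5 ± 0.17 and 1.08 ± 0.17 log2 units. The 1 that rose in WT mice was Mup20 (0.77 ± 0.20), and 14 in WT and 12 in AS mice did not pass the test.

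**Figure D4:**
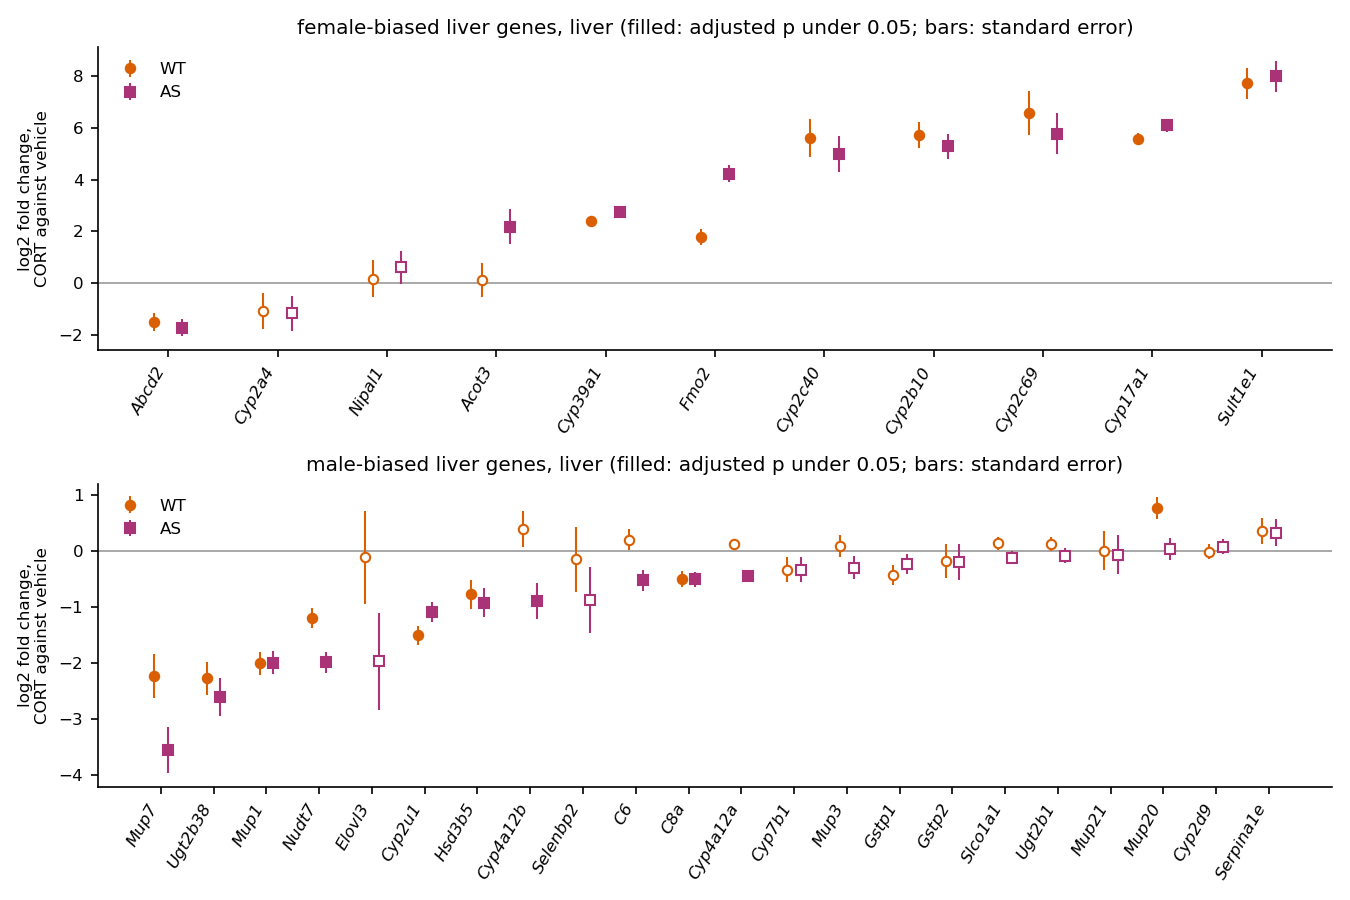
Change with CORT in the liver on the log2 scale for 11 of the 12 tested female-biased genes and all 22 male-biased genes, in WT and AS mice, with SE bars and filled symbols for an adjusted p below 0.05. Most female-biased genes lie above 0, and the called male-biased genes lie below 0 with the exception of Mup20 in WT mice.

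Some sex-biased genes were among the few genes that differed between AS and WT mice with CORT. Here 6 of 22 male-biased genes were lower and 0 higher in AS than in WT mice, and 2 of 12 female-biased genes were higher (1 of the 8 that also passed the filter in vehicle livers), beside 0.171% of all genes lower and 0.106% higher. By edgeR's test Mup20 was 1.58 ± 0.20 log2 units lower (adjusted p = 0.000748) and Mup7 2.05 ± 0.39 lower, with Cyp4a12a, Cyp4a12b, C6 and Nudt7 the other four, of which all but Mup7 and Nudt7 were named after their values were seen. Mup20 was at 239 to 525 CPM in AS and 809.99 to 1641 CPM in WT livers with CORT. Of the 2 higher genes, Fmo2, also named after its values were seen, was higher by 1.78 ± 0.29 log2 units (adjusted p = 0.00842). This comparison shares its CORT livers with the CORT effects above. With vehicle 0 genes of these lists differed between AS and WT mice by edgeR, yet 10 of 22 male-biased genes had an unadjusted p below 0.05, all 10 lower in AS mice, and 1 of 12 female-biased genes, Abcd2, which was higher, beside 10.3% of all genes in either direction. The medians with vehicle were -0.33 log2 units for the male-biased and 0.32 for the female-biased list, beside 0.01 over all genes. Mup20 was already at 299 to 450.3 CPM in AS against 546 to 816 CPM in WT livers with vehicle (-0.85 ± 0.20, adjusted p = 0.179), and Mup1 at 31.1 to 55.1 against 62.5 to 110.02 CPM (-0.90 ± 0.20, adjusted p = 0.175). The interaction called 0 genes of these lists by edgeR, and at an unadjusted p below 0.05 it held 6 male-biased genes, all more negative in AS mice, and 4 female-biased genes, all more positive, beside 8.11% of all genes. Fmo2 was the nearest to a call (2.44 ± 0.43, adjusted p = 0.103).

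The members also varied between mice of the same group, and these variations ran together for some of them. Over the 20 livers, each expressed as its deviation from the mean of its group on the log2 scale, 15 of 45 pairs of members were correlated with an adjusted p below 0.05 (permutation test, two-sided). That count is by Pearson's r, and by Spearman's rho it was 9. In the 14 livers without high Dbp the counts were 1 by r and 2 by rho. The share of correlated pairs among all genes was not computed, so the count is a description. Cish and Onecut1 had r = 0.909 and rho = 0.853 (adjusted p = 0.0009 by permutation, n = 20). Without the 2 livers farthest from the median of Cish, r was 0.823, and without the 6 livers with high Dbp it was 0.969 (n = 14, adjusted p = 0.0063, permutation). In vehicle livers alone r was 0.916 (n = 10, adjusted p = 0.0392, permutation), and in CORT livers alone it was 0.916 (n = 10, adjusted p = 0.0710, permutation). Cish did not overlap between the 7 livers with high Bcl6 and the other 13, and Onecut1 overlapped only at 14.1 to 14.5 CPM. How many of all genes likewise did not overlap between these sets was not computed. For pairs among Cish, Onecut1 and Socs2, r within these sets was not computed. Whether they vary together beyond the difference between the sets was not tested.

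Igf1 varied with Igfals (r = 0.720, rho = 0.675, adjusted p = 0.0122, permutation) and with Socs2 (r = 0.704, rho = 0.782, adjusted p = 0.0113, permutation). Without the 2 farthest livers these were 0.585 and 0.757. Socs2 varied with Onecut1 (r = 0.825, rho = 0.720, adjusted p = 0.0163, permutation) and with Cish (r = 0.737, rho = 0.614, adjusted p = 0.0313, permutation). In the 14 livers without high Dbp these 4 pairs had r of 0.714, 0.711, 0.841 and 0.818, with adjusted p of 0.0748, 0.0717, 0.0748 and 0.0827 by permutation. Igfals with Socs2 and with Onecut1 made up the rest of the pairs outside Bcl6 and the STAT5 genes, at r = 0.584 and 0.576. Igfals also varied with the number of reads set aside for low alignment quality (r = -0.771, rho = -0.815, adjusted p = 0.00417, permutation). For Igf1 this relation was r = -0.532 and did not pass (adjusted p = 0.106, permutation). The part of this technical measure in the pairs was not tested.

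For pairs with Stat5a or Stat5b the livers formed 2 clusters by Dbp, so r is given within the 14 livers without high Dbp. There Stat5a and Stat5b had r = 0.319 (adjusted p = 0.451 by permutation, n = 14), Ghr and Stat5a r = 0.323, Ghr and Stat5b r = 0.258, Igfals and Stat5a r = -0.260, and Igfals and Stat5b r = -0.227. None of these passed, although all 5 were among the 15 pairs over all livers. For Bcl6, whose livers were divided into the high and the low set, r within the 7 high and the 13 low livers was -0.287 and 0.247 with Cish, -0.282 and 0.0882 with Onecut1, and 0.0451 and 0.511 with Socs2. None of the 6 passed (lowest adjusted p = 0.451, exact permutation for the 7 and permutation for the 13). The sets were divided on the level of Bcl6 itself, so each covers a narrow part of its range and these r do not bear on the difference between the sets. In the 7 livers with high Bcl6, Cish was at 1.47 to 8.89 CPM and Onecut1 at 0.933 to 14.5 CPM, and in the other 13 they were at 13.3 to 71.8 and 14.1 to 44.1 CPM.

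**Figure D5:**
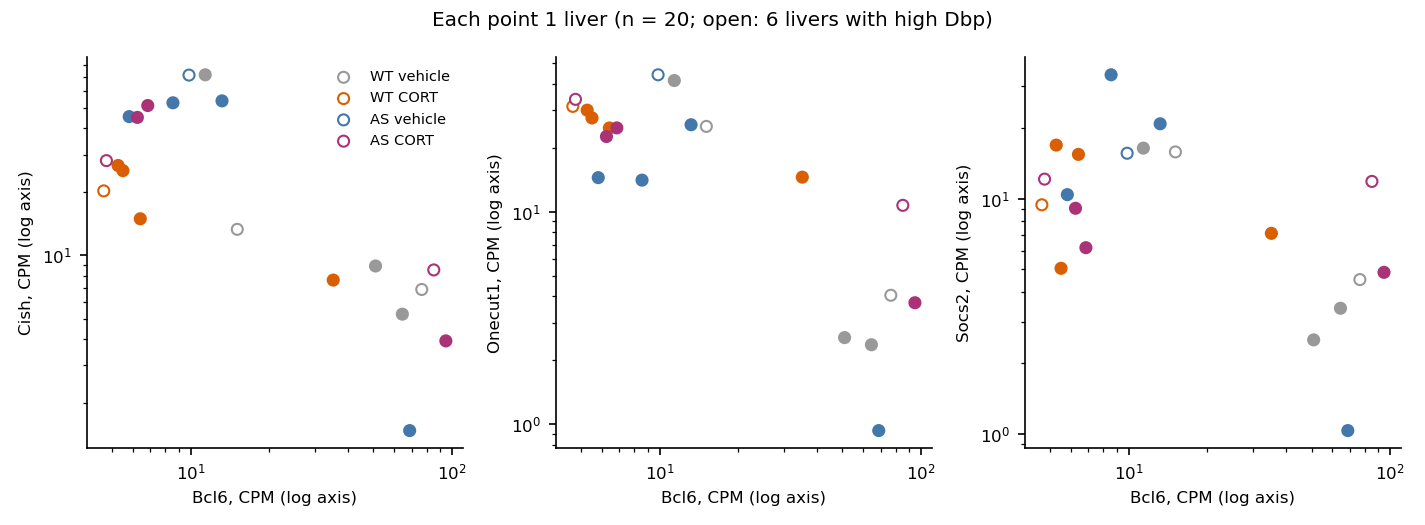
CPM of Cish, Onecut1 and Socs2 against CPM of Bcl6 in the 20 livers, on log axes, with colours for the groups and open symbols for livers with high Dbp. The 7 livers with Bcl6 of 35.1 CPM or more come from all 4 groups and have the lowest Cish of the 20.

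The genes most like Cish over the 20 livers, by Pearson's r of deviations within groups and out of 12273 tested genes, were Onecut1 (0.909), Ikzf4 (0.901), Foxa1 (0.900), Naa80 (0.885) and Rgs3 (0.851). Those most like Igf1 were Lifr (0.906), Nsd3 (0.830), Tcf7 (0.820), Plcxd2 (0.818) and Slc12a4 (0.818). The points share their libraries and depth, and these values are descriptions.

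In the hippocampus of the pellet cohort 1 of the 8 members tested was altered by CORT, in AS mice. Bcl6 was at 38.4 to 84.1 CPM over the groups, Cux2 at 17.99 to 29.5, Socs2 at 11.2 to 26.4 and Stat5b at 11.2 to 17.2 CPM, whereas Ghr, Igf1, Cish and Stat5a did not exceed 9.35 CPM. Libraries H9 and H13 were left out, which the study also did. Of the 8 members tested CORT altered 0 in WT mice by edgeR, beside 2.92% of 14949 genes (0.803% higher, 2.11% lower), and 1 in AS mice, beside 3.77% (2.03% higher, 1.75% lower). DESeq2 called 0 members in WT mice as well, and Ghr was the 1 with an unadjusted p below 0.05 (-0.37 ± 0.15 log2 units, adjusted p = 0.238). Bcl6 in AS hippocampi was at 54.6, 49.8, 38.4 and 52.8 CPM with vehicle (H2, H11, H14, H19) and at 69.5, 58.1, 62.8, 70.9 and 67.7 CPM with CORT (H7, H8, H10, H16, H18), without overlap. It rose by 0.43 ± 0.12 log2 units (adjusted p = 0.0472). The same change was 0.24 ± 0.12 in WT mice (adjusted p = 0.321). The interaction in the hippocampus called 0 members and 0% of genes by edgeR, 0 members by DESeq2, and 561 genes but no member at an unadjusted p below 0.05. The call was lost without any 1 of 11 of the 18 libraries, with changes from 0.33 (adjusted p = 0.150, without H14, the lowest vehicle library) to 0.47, and with all 20 hippocampi it was 0.62 ± 0.29 (adjusted p = 0.381).

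The change with CORT, averaged over genotypes, differed between liver and hippocampus for 2 of 10 members, beside 19.9% of genes (11% more positive in the liver and 8.95% more negative). Stat5b was 0.65 ± 0.15 log2 units more negative in the liver (edgeR adjusted p = 0.00204), a call that was lost with all 20 hippocampi (-0.30 ± 0.23, adjusted p = 0.429). Cux2 was 1.91 ± 0.41 more positive (adjusted p = 0.000690). For Ghr the difference was -0.31 ± 0.12 (adjusted p = 0.0656). Igfbp2 fell in the hippocampus of WT mice as well, by 0.98 ± 0.15 log2 units, and Igfbp7 by 0.50 ± 0.10. In AS hippocampi their changes were -0.52 ± 0.15 (adjusted p = 0.0656) and -0.35 ± 0.10 (adjusted p = 0.0532). Markers of other cells moved as well. Choroid plexus markers summed to 76.5 to 2872 CPM in WT hippocampi with vehicle and 36.2 to 125 CPM with CORT, and to 83.4 to 324 and 46.1 to 497 CPM in AS hippocampi. In WT mice 2 of its 4 tested markers fell, Ttr by 4.57 ± 1.22 and Folr1 by 3.35 ± 0.79 log2 units. Astrocyte markers summed to 530 to 622 CPM with vehicle and 322 to 397 CPM with CORT in WT, and to 476 to 536 and 308 to 389 CPM in AS hippocampi. Of these markers Gfap fell by 0.69 ± 0.09 and 0.55 ± 0.09 log2 units, and Aqp4 by 0.85 ± 0.08 in both genotypes. Aldh1l1 did not fall, with changes of 0.07 ± 0.07 and 0.15 ± 0.07 (edgeR adjusted p = 0.746 and 0.349). The part of choroid plexus cells and astrocytes in the changes of Igfbp2 and Igfbp7 was not tested. Irs2, an adaptor of the insulin and IGF1 receptors, rose by 0.25 ± 0.06 in WT and 0.26 ± 0.06 in AS hippocampi.

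In the separate cohort, Stat5a was higher in the hippocampus 3 h after a CORT injection in both genotypes. In WT mice Stat5a was at 1.77, 1.64, 2.07, 1.54, 1.101 and 1.03 CPM with vehicle, and at 2.11, 3.23, 3.95, 1.96, 2.89 and 1.901 with CORT. In AS mice it was at 1.22, 1.81, 1.17, 0.692, 0.9697 and 1.03 CPM with vehicle and at 3.09, 2.51, 3.09, 3.24, 2.67 and 3.202 with CORT. The AS groups did not overlap, and the WT groups overlapped at 1.901 to 2.07 CPM. The rises were 0.81 ± 0.20 log2 units in WT (edgeR adjusted p = 0.0344) and 1.36 ± 0.21 in AS hippocampi (adjusted p = 9.25e-05), and they rest on 14 to 83 counts per library.

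Of 9 members tested in this cohort 1 was altered in WT mice, where 1.48% of 14611 genes were altered (1.06% higher, 0.417% lower), and 3 in AS mice, where 17.9% were altered (8.25% higher, 9.62% lower). In AS mice Stat5b rose from 13.1 to 14.5 CPM over the vehicle group to 15.4 to 18.2 CPM with CORT, by 0.33 ± 0.07 log2 units (adjusted p = 0.00259). It changed by 0.24 ± 0.07 in WT mice (adjusted p = 0.0940). Cish in AS mice was at 1.997, 3.71, 3.205, 3.66, 1.6 and 2.15 CPM with vehicle (H13 to H18) and at 1.67, 1.96, 1.02, 1.096, 1.86 and 1.15 with CORT (H19 to H24), a fall by 0.90 ± 0.22 log2 units (adjusted p = 0.00728). In WT mice it changed by 0.20 ± 0.20.

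The interaction was called for Cish alone among the 9 members (-1.09 ± 0.30, adjusted p = 0.0402), beside 4.49% of genes (1.43% higher, 3.06% lower). All 6 AS CORT libraries and 2 of the AS vehicle libraries, H17 and H18, belonged to a class with 2640 to 2850 reads set aside by the counter for low alignment quality, against 1877 to 2237 in the other 16. With this class as a covariate, Stat5a in AS mice rose by 1.57 ± 0.32 log2 units (adjusted p = 0.00905), whereas Cish in AS mice changed by -0.37 ± 0.29 (adjusted p = 0.862), Stat5b in AS mice by 0.31 ± 0.10 (adjusted p = 0.216) and the interaction of Cish was -0.56 ± 0.34 (adjusted p = 0.892). Over all genes, the covariate took the altered share in AS mice from 17.9% to 1.03%, and that of the interaction from 4.49% to 0.00684%. The CORT effect in AS mice then rests on H17 and H18, the vehicle libraries of that class. The call of Stat5a in WT mice was lost when any 1 of 7 libraries was left out, among them vehicle libraries H2, H4, H5 and H6 and CORT libraries H8, H9 and H11, with rises of 0.66 to 0.83 log2 units and adjusted p up to 0.113. The call of the interaction was likewise lost without any 1 of 14 of the 24 libraries (adjusted p up to 0.0837).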

How the data were processed

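Libraries were stranded mRNA libraries read as 100 bp pairs on DNBseq, aligned by the authors with STAR to mm10 and counted per gene with HTSeq-count, and the deposited values are whole-number read counts per Ensembl gene, unnormalized. The annotation release and the strand setting of the counting were not given in the sources used here. Counts on genes were 18612550 to 20868924 per liver, 19112929 to 21783009 per hippocampus with pellets and 19049461 to 21052967 per hippocampus after injection. Rows that name no gene (15.4 to 23.3% of reads in livers, 11.7 to 15.9% in hippocampi) were left out.

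Samples were grouped by tissue, genotype and treatment from their labels. Genes with more than 20 normalized counts in at least 3 libraries of a group were tested with edgeR 4.0.16 (R 4.3.3), with TMM factors, a group-means design over the 20 livers, the 18 hippocampi with pellets, both together, or the 24 injected hippocampi, quasi-likelihood F tests (two-sided) and Benjamini-Hochberg adjusted p-values over all tested genes, called below 0.05. SE is the log2 change divided by the square root of F. CPM were TMM-scaled, and a CPM value with 3 counts or fewer was taken as the floor. Pairs of members were compared by Pearson's r of deviations from group means of log2 CPM (prior count 2) with 100000 permutations within groups. Gene positions came from GENCODE M21 (GRCm38) and start regions from RefSeq. Alternatives were DESeq2 1.42.0, limma-voom 3.58.1, 1 surrogate variable (sva 3.50.0), other normalizations and filters, left-out libraries and replicate blocks, plus the class of mice by Dbp, added after seeing the data. The fits were tested on simulated data.

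Named genes were the 10 members, the 4 genes of each list with the smallest adjusted p in the liver of each genotype, and all genes of a list with fewer than 10 tested. Some genes that the rule names are not reported here, although they remain in the list counts. The members and lists were chosen with earlier results of these data known. Liver and hippocampus were collected from the same mice per the study's methods, and same-numbered libraries share genotype and treatment, but no source used here states that a number marks 1 mouse. On that reading, the fit over both tissues was also made with the number as a replicate block. The deviations of same-numbered livers and hippocampi from their group means had r from -0.0376 to 0.0421 over genes, and the liver of the same number ranked first for 5 of 18 hippocampi. Where nothing says otherwise, p-values measure the spread between these mice. No 2 libraries of the same group agreed within sampling noise.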

Additional observations from a re-analysis of the deposited data

Results flagged for a closer look

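Among 108 groups of 4 to 6 libraries examined for a stray value in a member, 7 held one by Dixon's test at 95%, where chance alone gives about 1 in 20, or 5.4. In the liver, Bcl6 was at 35.1 CPM in L15 (WT CORT), against 4.65 to 6.42 CPM in the other 4. Cish was at 1.47 CPM in L14 (AS vehicle), against 45.5 to 71.6 CPM, and L14 also had the lowest Socs2 and Onecut1 of its group and the highest Bcl6. Igfals was at 109.7 CPM in L20 (WT CORT), against 155 to 176 CPM. Stat5a was at 8.66 CPM in L2 (AS vehicle), a liver with high Dbp, against 16.5 to 19.2 CPM. In the hippocampus with pellets, Igf1 was at 9.35 CPM in H14 (AS vehicle), against 7.14 to 7.33 CPM. In the injected cohort, Stat5b was at 15.4 CPM in H19 (AS CORT), against 17.3 to 18.2 CPM, and at 13.9 CPM in H8 (WT CORT), against 17.4 to 19.6 CPM.

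Effects of CORT that differed between groups by a test of the difference were those of Cux2 and Stat5b between tissues, 1.91 and -0.65 log2 units as liver minus hippocampus (for Stat5b -0.30 and no longer called with all 20 hippocampi), and that of Cish between genotypes in the injected cohort, -1.09 log2 units as AS minus WT. The last was not called with the class of low-quality reads as a covariate, where 0.00684% of all genes were called. All 6 AS CORT libraries belong to that class.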

How the results depend on the processing

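The number of members altered by CORT in the WT liver went from 1 to 2 with 1 surrogate variable, 3 without the 6 mice with high Dbp and 2 with that class as a covariate, and was 1 to 2 when 1 liver was left out. Over all genes 18.6% were altered as reported, 26.2% with the surrogate variable, 19.5% without the 6 mice and 24.4% with the covariate. Cux2 as the 1 member that differed between AS and WT mice with CORT was lost (0) when only the 2 groups compared were fitted. The share of all genes was 0.277% as reported and 0.263% in that fit. In the AS hippocampus the 1 call became 0 at an adjusted p under 0.01, with upper-quartile normalization, with all 20 hippocampi, without the 6 mice and with their class as a covariate, and was 0 to 1 with 1 library left out. Of all genes 3.77% were altered as reported, and 1.82%, 3.79%, 1.47%, 2.57% and 3.81% in these settings, in the same order. With all 20 hippocampi, the 2 members that differed between tissues became 1 (Stat5b -0.30, edgeR adjusted p = 0.429), and the share of all genes went from 19.9% to 17.3%. In the injected cohort the 1 call in WT mice became 0 at an adjusted p under 0.01 and with only the 2 groups compared, and was 0 to 2 with 1 library left out. Of all genes 1.48% were altered as reported, 0.76% under 0.01 and 0.918% with the 2 groups. The 3 calls in AS mice became 1 with the class of low-quality reads as a covariate, where the share of genes went from 17.9% to 1.03%. The 1 interaction became 0 at an adjusted p under 0.01 and with that covariate, 3 with limma-voom, and 0 to 2 with 1 library left out. Beside it 4.49% of genes were called as reported, 0% under 0.01, 0.00684% with the covariate and 22.9% with limma-voom. The 10 male-biased genes called in AS mice became 6 at an adjusted p under 0.01, where the share of all genes altered in either direction went from 27.5% to 16.3%. Pairs of members with an adjusted p below 0.05 went from 15 to 1 in vehicle livers, 2 in CORT livers and 1 without the 6 mice, where r turned from negative to 0.323 for Ghr with Stat5a and 0.258 for Ghr with Stat5b; they were 5 to 15 with 1 liver left out, lowest without L4, and 8 without L2. With the library number, read as the mouse, as a replicate block over both tissues, 8 members differed between liver and hippocampus (88.4% of genes) and 2 in their CORT effect (15.8% of genes), and no call changed. The cause was not tested for any of these.

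Depth limits the members at a few counts. Cux2 rests on 2 to 138 counts per liver and Stat5a in the injected hippocampi on 14 to 83.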

Other observations

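The hippocampi with pellets held transcripts of the hormones that feed the axis in a few libraries. Gh, at 0 counts in all 20 livers, was at 95.4 CPM in H15 (WT CORT), 76.6 in H16 and 20.3 in H7 (AS CORT), 7.32 in H19 (AS vehicle) and 5.52 in H8 (AS CORT), and at 1.31 CPM or less in the others. Prl was at 7.91 CPM in H15, 7.99 in H16, 2.08 in H7, 1.56 in H19 and 0.809 in H8, and at 0.212 CPM or less in the others. Pituitary markers, Gh and Prl among them, reached higher sums (H9 and H13 left out). With CORT they summed to 0.790 to 334 CPM in AS and 0.507 to 170 CPM in WT hippocampi. With vehicle the sums were 1.10 to 11.8 and 0.965 to 2.12 CPM. In the injected cohort Gh did not exceed 1.03 CPM. Alb, the main transcript of hepatocytes, was at 89.4 CPM in H1. Hepatocyte markers, Alb among them, summed to 0.738 to 108 CPM in WT and 0.500 to 37.6 CPM in AS hippocampi with vehicle (H9 and H13 left out). With CORT the sums were 0.695 to 3.85 CPM in WT and 0.370 to 0.709 CPM in AS hippocampi. The part of these transcripts in the hippocampal results was not tested.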
